A study of Homo sapiens with 46 samples.

Results

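The genes described here are the 37 genes that the deposited count table places on the mitochondrial chromosome (chrM), out of 62756 genes in all. They comprise 13 protein-coding genes, 2 ribosomal RNA genes and 22 transfer RNA (tRNA) genes. They were followed across 46 RNA-seq libraries of DLD-1, an adherent human colorectal adenocarcinoma cell line. The parental line (genotype WT) was compared with 3 lines whose own Lamin A/C (LAC), Lamin B1 (LB1) or Lamin B2 (LB2) carries an N-terminal auxin-inducible degron, a tag that sends the protein to the proteasome once auxin is present. All 4 lines received auxin at 1 mM from a DMSO stock, and were taken at 0, 16 or 96 h; the labels do not say whether the 0 h cells received DMSO. Of the 12 groups, 10 held 4 libraries, while LB1 cells at 0 h and LB2 cells at 96 h had 3. Each replicate was 1 well of a culture plate, so the p-values measure only the spread between wells, which may be technical. The labels do not say whether a tagged line is 1 clone. Lamin protein was not analysed here, and a degron acts on protein, so lamin transcripts do not check its loss.

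The human mitochondrial genome is a small circle that is transcribed from both strands into long precursors, which are cut at the tRNAs that lie between most of the coding genes. Its protein-coding genes all specify subunits of the respiratory chain and ATP synthase, whose remaining subunits come from nuclear genes. The ribosomal and transfer RNAs serve the translation of these few messages inside the organelle. The long mitochondrial RNAs differ in stability, so equal transcription does not give equal levels.

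In the count table's GRCh38 coordinates, 12 of the 13 coding genes lie on the plus strand and MT-ND6 alone on the minus strand, with 8 of the 22 tRNA genes. Both strands differ in base content: G makes up 35.6% of MT-ND6 and 6.28% to 16.2% of the other 12 genes. The first 60 bases of 3 genes, 5′ to 3′ with every G in capitals, show the contrast. They were chosen because, among the coding genes, MT-ND5 and MT-ND6 had the largest changes at 16 h in the parental line and MT-CO1 is the most abundant coding gene.
MT-ND5, chrM:12337-12396, plus strand: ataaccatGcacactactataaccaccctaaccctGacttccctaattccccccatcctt
MT-ND6, chrM:14614-14673, minus strand: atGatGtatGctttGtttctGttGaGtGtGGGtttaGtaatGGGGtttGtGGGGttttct
MT-CO1, chrM:5904-5963, plus strand: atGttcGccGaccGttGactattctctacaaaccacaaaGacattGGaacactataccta

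Coding genes also overlap, which limits how reads can be assigned. MT-ATP8 ends 46 bases inside MT-ATP6, and MT-ND4L ends 7 bases inside MT-ND4. The last bases of both upstream genes are given with the overlap in capitals.
MT-ATP8, chrM:8497-8572, plus strand: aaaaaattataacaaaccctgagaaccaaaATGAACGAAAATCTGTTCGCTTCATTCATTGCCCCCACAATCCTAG
MT-ND4L, chrM:10730-10766, plus strand: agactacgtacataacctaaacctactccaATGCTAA
How the counting treated reads in these overlaps, and its strand setting, are not given in the sources used here. Of the 13 coding genes, 6 have a length that is not a multiple of 3; such genes end in T or TA, and the stop codon is completed by the poly(A) tail. MT-ND5, MT-ND6 and MT-CO1, whose first bases are given further above, lie at chrM:12337-14148, chrM:14149-14673 and chrM:5904-7445, in that order. All sequences are those of the GENCODE release 29 transcripts, whose positions matched the count table for 37 of 37 genes.

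Library totals ran from 479446 to 37309421 counts, and 6 libraries held under 5000000, namely parental 0 h replicate 4, LAC 0 h replicate 1, LB1 0 h replicate 2, LB2 0 h replicates 1 and 4 and LB2 16 h replicate 3. Colorectal epithelial markers summed to 5474 to 12579.7 CPM (counts scaled to a common library size, with TMM factors) per library, while fibroblast markers reached at most 5.54, immune markers 5.49 and endothelial markers 17.5. Most of the epithelial sum came from the keratins KRT8 and KRT18, with means of 4223 and 1599 CPM. CDX2 of the same list averaged 148 CPM, but VIL1, LGALS4 and CDX1 averaged only 1.41, 0.69 and 0.03. LMNA averaged 738 CPM in the parental line and 435 in LAC at 0 h, LMNB1 147 and 94.7 in LB1, and LMNB2 283 and 143 in LB2.

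The 13 coding genes together held 0.382% to 2.60% of the counts of a library. The 95% Wilson intervals of these shares, which cover counting error only, reached at most 0.0245 percentage points to either side. A share can move because mitochondrial RNA changed or because the nuclear RNA did. In bulk RNA, fewer mitochondria per cell cannot be told apart from less RNA in each mitochondrion. Levels per gene length were led by MT-CO1, the catalytic core subunit of complex IV, with a mean of 3239.9 CPM per kilobase over the 46 libraries. MT-CO3, another core subunit of complex IV, followed with 1507 CPM per kilobase, and MT-ND4 of complex I with 963. MT-CO2, the complex IV subunit that receives electrons from cytochrome c, had 771 CPM per kilobase. The others ranged from 223 (MT-ATP8, a small subunit of ATP synthase) to 655 (MT-ND4L of complex I). MT-CYB, the only complex III subunit encoded here, had 468 and MT-ATP6, the proton channel subunit of ATP synthase, 480.3. MT-CO1 alone took from 22.0% to 62.6% of the coding counts. Its 3 lowest shares, 22.0%, 25.5% and 30.1%, were those of LB2 16 h replicate 3, LAC 0 h replicate 1 and LB2 0 h replicate 1, all under 5000000 counts. RN7SL1, the RNA of the signal recognition particle, held 2.97%, 3.34% and 4.06% of all counts in those 3 libraries.

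**Figure D1:**
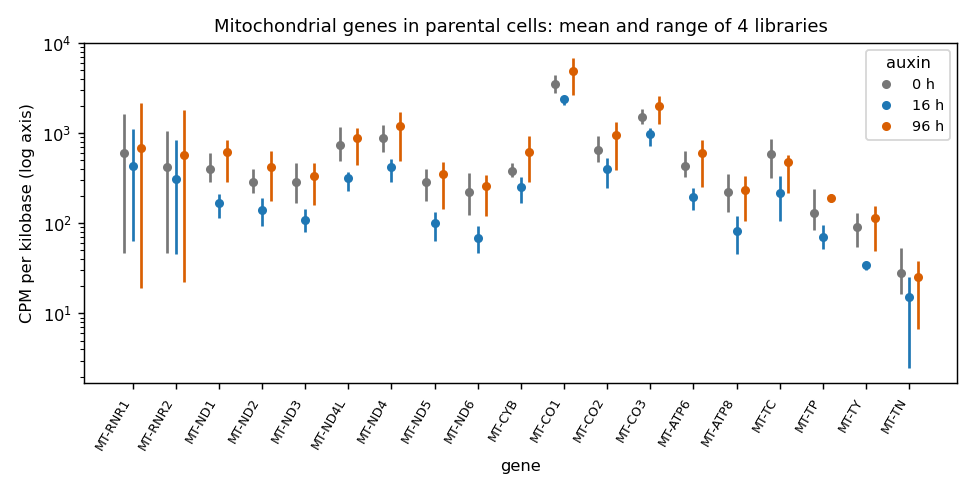
Level of the 2 ribosomal RNA genes, the 13 coding genes and 4 tRNA genes in the parental line, in CPM per kilobase on a log axis; points are means of 4 libraries and lines run from the lowest to the highest library, by time in auxin. MT-CO1 was the highest coding gene at each time, and the ribosomal RNAs had the widest ranges.

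After 16 h of auxin the coding share was lower than at 0 h in each line on average. In the parental line the 4 libraries held 1.468, 0.9471, 0.8928 and 1.218% at 0 h and 0.4804, 0.6605, 0.7139 and 0.6464% at 16 h. These groups did not overlap, and the mean went from 1.132% ± 0.266 (SD, n = 4) to 0.6253% ± 0.101 (SD, n = 4). In LAC the values were 0.5967, 0.9743, 1.342 and 1.149% at 0 h and 0.5852, 0.5180, 0.5309 and 0.5161% at 16 h, again without overlap. In LB1 they were 1.504, 1.128 and 0.9123% and 0.3822, 0.5233, 0.4934 and 0.7841%, without overlap. In LB2 the 0 h values of 0.6142, 0.9496, 1.322 and 1.816% and the 16 h values of 0.5211, 0.6905, 0.7534 and 1.190% overlapped. Being a sum over the genes, the share was not tested. The log2 ratio of the mean shares, 16 h over 0 h, was -0.86 in the parental line, -0.92 in LAC, -1.11 in LB1 and -0.58 in LB2.

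**Figure D2:**
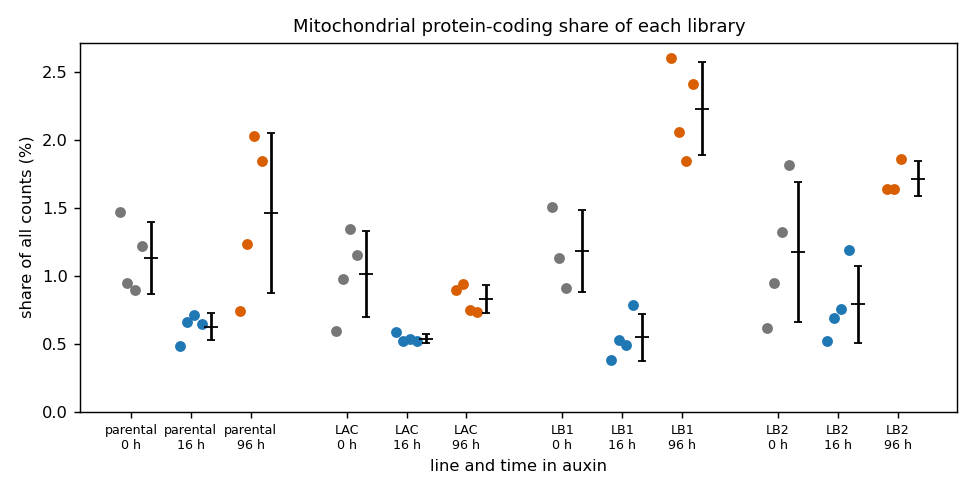
Share of all counts (%) held by the 13 mitochondrial coding genes in each of the 46 libraries, by line and time in auxin; points are libraries and bars are the mean ± SD of the group. The 16 h libraries lie below the 0 h libraries of their line except in LB2, and the 4 LB1 libraries at 96 h, at 1.84 to 2.60%, lie above its 0 h libraries.

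Gene by gene, 27 of the 37 genes passed the low-count filter: the 13 coding genes, both ribosomal RNAs and 12 tRNAs. In the parental line 12 of these 27 were lower at 16 h and 0 higher at an edgeR adjusted p under 0.05, where 9.01% of all genes tested were called in either direction. The 12 were 9 coding genes, MT-TM, MT-TC and MT-TY. The median log2 fold change of the 13 coding genes was -1.14, against -0.04 over all genes. Without parental 0 h replicate 1 the count was 4.

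Among the coding genes, MT-ND6 and MT-ND5 of complex I had the largest changes. MT-ND5 stood at 723, 316, 413 and 606 CPM in the 0 h parental libraries and at 116, 183, 238 and 199 at 16 h, with no overlap (log2 -1.48 ± 0.30 (SE), edgeR adjusted p = 0.00144). MT-ND6 stood at 190.1, 64.8, 86.3 and 129 CPM and then at 24.3, 39.3, 48.8 and 32.4, also with no overlap (log2 -1.70 ± 0.37 (SE), edgeR adjusted p = 0.00280). The other complex I genes fell by less: MT-ND1 by 1.25, MT-ND2 by 1.06, MT-ND3 by 1.41, MT-ND4 by 1.09 and MT-ND4L by 1.22 on the log2 scale. Both ATP synthase genes fell, MT-ATP8 by 1.45 and MT-ATP6 by 1.14. The remaining 4 genes did not pass the test in the parental line. MT-CO1 had 6759, 5104, 4264 and 5496 CPM at 0 h and 3113, 4002, 3864 and 3754 at 16 h; these libraries did not overlap either, but the change was smaller (log2 -0.55 ± 0.30 (SE), edgeR adjusted p = 0.244). MT-CO2 gave log2 -0.72, MT-CO3 -0.63 and MT-CYB -0.60, with adjusted p = 0.0804, 0.0939 and 0.196.

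In LAC, 10 of the 27 genes were lower at 16 h and 0 higher, where 1.78% of all genes were called. They were 9 coding genes and MT-TC, and the median of the 13 coding genes was -1.18 (all genes -0.02). MT-ND5 had 692, 492, 822 and 724 CPM at 0 h and 288, 201, 189.9 and 159 at 16 h (log2 -1.70 ± 0.30 (SE), edgeR adjusted p = 0.00111), without overlap. MT-CO2 and MT-CYB were among the genes called here, at log2 -1.20 and -1.06. MT-CO1, MT-CO3, MT-ND3 and MT-ND4L were not, at log2 -0.60, -0.69, -1.11 and -0.95. The count was 2 and 6 without LAC 0 h replicates 3 and 4 in turn, and 5, 1 and 1 without LAC 16 h replicates 2, 3 and 4.

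In LB1, 7 of the 27 were lower at 16 h and 0 higher, where 1.5% of all genes were called. They were MT-ND1, MT-ND4, MT-ND4L, MT-ND5, MT-ND6, MT-CYB and MT-TC, and the median of the 13 coding genes was -1.13 (all genes -0.01). MT-ND6 had 190.4, 147 and 86.3 CPM at 0 h and 53.6, 56.6, 27.4 and 55.1 at 16 h (log2 -1.55 ± 0.39 (SE), edgeR adjusted p = 0.0287). The highest 16 h library was below the lowest 0 h library. Leaving out LB1 0 h replicate 1 or 2, or LB1 16 h replicate 1 or 3, left 1 gene, and leaving out LB1 16 h replicate 2 left 3.

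In LB2 the edgeR test called 0 of the 27 at 16 h, where 1.81% of all genes were called; 8 had an unadjusted p under 0.05, and DESeq2 called 1. The 13 coding genes had negative log2 fold changes with a median of -0.51 (all genes -0.02). MT-ND5 stood at 625, 467, 672 and 999 CPM at 0 h and at 154, 277, 650.4 and 533 at 16 h, and the groups overlapped. The third of the 16 h libraries held 479446 counts in all, and without it 3 genes were called; without LB2 0 h replicate 2 there was 1, and without LB2 16 h replicate 4 there were 2.

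All 13 coding genes had a negative fitted change at 16 h in each of the 4 lines. This held under the scaling alternatives (RLE, library size only, and mitochondrial genes left out of the scaling), while with the GC and length trend removed 12 of 13 were negative in LB2. Whether the tagged lines changed by another amount than the parental line was tested as a difference of differences. At 16 h edgeR called 0 of the 27 genes for LAC (0.116% of all genes called; 0 had an unadjusted p under 0.05, and DESeq2 called 0). It called 0 for LB1 (0.0279%; 1 had an unadjusted p under 0.05, and DESeq2 called 0) and 0 for LB2 (0.00465%; 3 had an unadjusted p under 0.05, and DESeq2 called 0). For MT-ND5 the difference from the parental change was log2 -0.22 ± 0.42 in LAC, 0.15 ± 0.44 in LB1 and 0.67 ± 0.42 in LB2 (SE). These comparisons share the parental libraries.

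RN7SL1, chosen with 3 other nuclear noncoding RNAs after their values were seen, was lower on average in the same libraries. Its share went from 0.591 to 1.99% at 0 h to 0.376 to 0.595% at 16 h in the parental line, at log2 -1.20 with an edgeR adjusted p = 0.163. The nuclear noncoding RNAs MALAT1 and NEAT1 were called lower there, at log2 -1.29 and -1.31 (MALAT1 not without parental 0 h replicate 1, adjusted p = 0.0648 by edgeR), while RMRP, the RNA of RNase MRP, was at 0.14. Library totals were 3770140 to 11696867 at 0 h and 6549862 to 37309421 at 16 h. The part of noncoding RNA content and of depth in the lower mitochondrial levels was not tested.

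**Figure D3:**
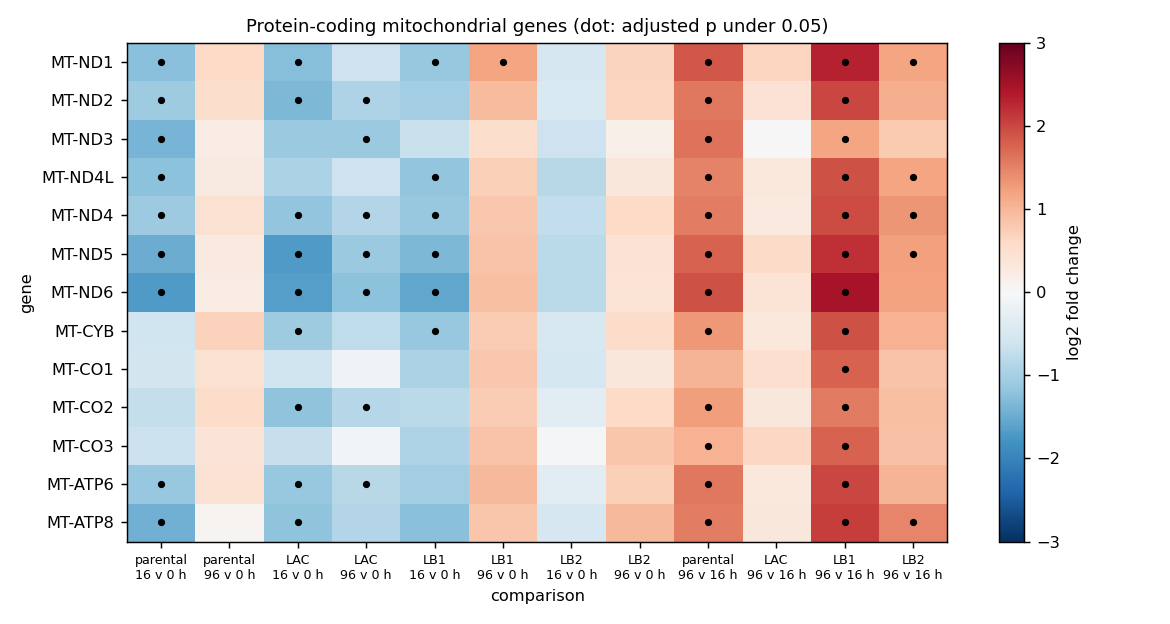
Log2 fold change (colour) of the 13 coding genes (rows) in 12 comparisons (columns: 16 and 96 h against 0 h, then 96 h against 16 h, for each line); dots mark an edgeR adjusted p under 0.05. The columns of 16 against 0 h are below 0 throughout, and those of 96 against 16 h are above 0 throughout. Columns of 96 against 0 h are above 0 in the parental line, LB1 and LB2 and below 0 in LAC. With library size only, 1 gene was negative at 96 against 0 h in the parental line and 11 of 13 were in LAC.

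At 96 h the mean coding share was highest in LB1 and lowest in LAC. The coding share in the parental line was 0.7423, 1.230, 2.029 and 1.842%, which overlapped its 0 h values, with a mean of 1.461% ± 0.588 (SD, n = 4). In LAC it was 0.8915, 0.9367, 0.7467 and 0.7353%, within the range at 0 h and above every 16 h library. In LB1 it was 2.603, 2.061, 1.842 and 2.414%, above every 0 h library. LB2 had 1.635, 1.641 and 1.860%, which overlapped with 0 h through the highest 0 h library. The log2 ratios of the mean shares, 96 h over 0 h, were 0.37 in the parental line, -0.30 in LAC, 0.92 in LB1 and 0.54 in LB2. Within replicates 1 and 2 alone the parental and LAC ratios had the opposite sign, -0.29 and 0.22, and within replicates 3 and 4 they were 0.87 and -0.75.

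In LAC, 7 of the 27 genes were lower at 96 h than at 0 h and 0 higher, where 15.4% of all genes were called. All were coding genes: MT-ND2, MT-ND3, MT-ND4, MT-ND5 and MT-ND6 of complex I, MT-CO2 and MT-ATP6. MT-ND5 had 409, 298, 268 and 280.0 CPM at 96 h, below each 0 h value given above (log2 -1.12 ± 0.30 (SE), edgeR adjusted p = 0.00724). MT-ND6 had 168, 97.3, 173 and 152 CPM at 0 h and 91.3, 56.0, 46.6 and 55.5 at 96 h, also without overlap (log2 -1.24 ± 0.36 (SE), edgeR adjusted p = 0.0142). MT-CO1 and MT-CO3 did not pass the test, at log2 -0.10 and -0.08 with adjusted p = 0.882 and 0.888. All 13 fitted changes were negative (median -0.87, all genes 0.03), and 11 of 13 with library size only. The count was 2 with library size only and, leaving out 1 library each, 2 and 3 without LAC 0 h replicates 3 and 4 and 2, 1 and 3 without LAC 96 h replicates 2, 3 and 4. RN7SL1 stood at log2 -1.404 in this comparison (adjusted p = 0.0772) and at -0.16 without LAC 0 h replicate 1, where 7 mitochondrial genes were called.

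In LB1, only MT-ND1, a core subunit of complex I, was called at 96 h, and it was higher; 3.17% of all genes were called. It had 701, 488 and 311 CPM at 0 h and 1399.8, 949.7, 886 and 1277 at 96 h, without overlap (log2 1.17 ± 0.32 (SE), edgeR adjusted p = 0.0285). It lost the call without LB1 0 h replicate 2 or 3, or LB1 96 h replicate 1 or 4. All 13 coding genes had positive changes (median 0.83, all genes 0.04). A fit to the 2 groups alone called 16 of the 27 higher, but the share of all genes called in that fit is not given here. In the parental line 0 were called at 96 h, where 7.78% of all genes were (4 had an unadjusted p under 0.05, and DESeq2 called 0); 2 were called without parental 0 h replicate 1 or 96 h replicate 1. In LB2 edgeR called 0, where 3.55% of all genes were (10 had an unadjusted p under 0.05, and DESeq2 called 1), and 1 or 3 without LB2 0 h replicate 3 or 4. The median of the 13 coding genes was 0.45 in the parental line and 0.59 in LB2.

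With all libraries, the LAC change at 96 h was called different from the parental change for 6 coding genes. Each was lower in LAC, and 7.4% of all genes were called. The 6 were MT-ND2, MT-ND4 and MT-ND5 of complex I, MT-CYB, MT-CO2 and MT-ATP6. Within replicates 1 and 2 alone the coding shares of LAC and the parental line differed in the opposite direction, as given above. No test of single genes within those replicates is given. MT-CO2 stood at 640.0, 326, 382 and 438 CPM in the parental 0 h libraries and at 263, 622, 910.5 and 809 at 96 h. In LAC it went from 545, 459, 808 and 664 to 393, 308, 315 and 342. The 96 h values lay below every 0 h value in LAC and straddled them in the parental line, and the difference was log2 -1.41 ± 0.38 (SE), edgeR adjusted p = 0.0184. MT-CYB gave the largest difference of the 6 (log2 -1.45 ± 0.42 (SE), edgeR adjusted p = 0.0261). The call count was 1 when libraries were scaled by size alone and 3 under RLE, and leaving out 1 library each gave 1 to 11. It was 11 without parental 0 h replicate 1. It was 2, 2 and 3 without parental 0 h replicates 2, 3 and 4, and 3, 1 and 1 without parental 96 h replicates 2, 3 and 4. It was 1 without LAC 0 h replicate 3, and 2, 1 and 2 without LAC 96 h replicates 2, 3 and 4.

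The corresponding differences at 96 h were called for 0 of the 27 genes in LB1 (1.04% of all genes; 2 had an unadjusted p under 0.05, and DESeq2 called 0) and for 0 in LB2 (0.368%; 4 had an unadjusted p under 0.05, and DESeq2 called 0). Against LB1, chosen after the 96 h values were seen, the LAC change was lower for 7 coding genes (1.01% of all genes called), led by MT-ND6 at log2 -2.15 ± 0.54 (SE), edgeR adjusted p = 0.0327. Leaving out 1 library each gave 0 to 9 calls. Without LB1 0 h replicate 3 there were 0, and of the others LAC 0 h replicates 3 and 4 left 1 and 3, LAC 96 h replicates 2, 3 and 4 left 2, 1 and 2, and LB1 0 h replicate 2 and LB1 96 h replicate 4 left 2 each. Against LB2 edgeR called 0 (0.489% of all genes; 15 had an unadjusted p under 0.05, and DESeq2 called 6). That count was 12 without the 6 libraries under 5000000 counts. It was 6 without LAC 0 h replicate 2, 4 without LAC 96 h replicate 1, and 6 and 1 without LB2 0 h replicates 1 and 4.

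From 16 to 96 h, a comparison also added after the values were seen, mitochondrial genes were higher in the parental line. There 14 of the 27 were higher and 0 lower, while 0.265% of all genes, 57 of 21484, were called. The 14 were 12 of the 13 coding genes, MT-TY and MT-TP, and MT-CO1 missed the threshold (log2 1.02 ± 0.30 (SE), edgeR adjusted p = 0.206). MT-ND1 went from 110.2, 174, 199.7 and 163 CPM to 273, 617, 792 and 655, and every 96 h library was above every 16 h library (log2 1.85 ± 0.30 (SE), edgeR adjusted p = 3.60e-04). The median of the coding genes was 1.54. The count was 4, 7 and 8 without parental 16 h replicates 1, 2 and 4, and 9, 5 and 8 without parental 96 h replicates 2, 3 and 4.

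In LB1, 20 of the 27 were higher at 96 h than at 16 h and 0 lower, where 20.4% of all genes were called; the count was 16 to 20 over the fits that left out 1 library each. All 13 coding genes and 7 tRNAs were among them, with a coding median of 1.95. MT-ND6 went from 53.6, 56.6, 27.4 and 55.1 to 339.7, 221, 205 and 299 CPM, with no overlap (log2 2.47 ± 0.37 (SE), edgeR adjusted p = 4.97e-06). In LB2, 7 were higher (2.5% of all genes called): MT-ND1, MT-ND4, MT-ND4L, MT-ND5, MT-ATP8, MT-TC and MT-TN. Without LB2 16 h replicate 3 or 4 the count was 12 or 11, and it was 2 without LB2 16 h replicate 1 or 2 or LB2 96 h replicate 2 or 3. In LAC only the tRNA genes MT-TC and MT-TP were higher (5.27% of all genes called), and the coding median was 0.34. The count was 1 or 0 without any of LAC 16 h replicates 2, 3 and 4 or LAC 96 h replicates 1, 2 and 3.

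Before auxin, edgeR called 0 of the 27 in LAC against the parental line (15.8% of all genes called; 1 had an unadjusted p under 0.05, and DESeq2 called 0) and 0 in LB1 (4.05%; 0 had an unadjusted p under 0.05, and DESeq2 called 0). Without parental 0 h replicate 1 there was 1 call in LAC. In LB2 only MT-TM, the tRNA for methionine, was called lower, where 8.21% of all genes were called. It is a gene of few counts: the 4 parental libraries at 0 h held 41 counts of it and the 4 LB2 libraries 2. The pooled ratio was 23.2, with a 95% counting interval of 6.03 to 198 that ignores the spread between wells. DESeq2 did not make the call, and without LB2 0 h replicate 1 there were 2 calls. At 16 h the parental libraries held 6 counts of MT-TM against the 41 at 0 h, a pooled ratio of 14.9 with a counting interval of 6.29 to 42.9, and its change there was the largest of all members called (log2 -3.90 ± 0.84 (SE), edgeR adjusted p = 0.00235). Its gene is shown because it was the only one that differed between lines at 0 h.
MT-TM, chrM:4402-4469, plus strand: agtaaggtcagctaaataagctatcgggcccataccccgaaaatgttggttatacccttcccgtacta

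The mix within the coding genes is given as a description. MT-ND6 is the only coding transcript of its strand, and per kilobase it stood at 27.0% ± 6.45 (SD, n = 4) of the mean of the other 12 in the parental line at 0 h. At 16 h it stood at 14.8% ± 2.11 (n = 4) and at 96 h at 24.2% ± 5.46 (n = 4). The 16 h range, 12.9% to 17.4%, lay below both others. In LB1 the means were 30.3%, 21.6% and 32.4% in order of time, and in LAC 36.1%, 20.0% and 19.4%. The spread was wide in LB2 at 16 h, from 13.4% to 70.2%. In the parental line MT-CO1 held 51.08% ± 3.31 (SD, n = 4) of coding counts at 0 h, 58.08% ± 3.87 (SD, n = 4) at 16 h and 51.21% ± 2.50 (SD, n = 4) at 96 h. In LAC its means were 40.4%, 51.2% and 52.3% in order of time, in LB1 45.2%, 46.0% and 44.4%, and in LB2 43.4%, 44.2% and 40.3%, so the higher 16 h mean of the parental line was not seen in LB1 or LB2 beyond their spread. The parental libraries overlapped, at 48.3% to 55.8% at 0 h and 53.5% to 62.6% at 16 h. Those of LAC did too, at 25.5% to 51.7% and 46.0% to 55.0%. The lowest LAC value was that of 0 h replicate 1, a library under 5000000 counts. These mixes were not tested.

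The 2 ribosomal RNA genes, MT-RNR1 (12S) and MT-RNR2 (16S), were the most variable of the 3 classes. Libraries were depleted of ribosomal RNA, and their share ran from 0.00478% to 7.72% of counts, so the levels here are what depletion left. In 8 of the 10 groups with 4 replicates, replicates 3 and 4 both lay above replicates 1 and 2; the exceptions were LB1 at 16 h and LB2 at 0 h. The median share was 0.0215% over the 24 libraries numbered 1 or 2 and 0.241% over the 22 numbered 3 or 4. The labels name no batch behind these numbers. Neither edgeR nor DESeq2 called either gene in any of the 23 comparisons, 1 edgeR test had an unadjusted p under 0.05 (in LB2 at 16 h), and the edgeR standard errors of their log2 fold changes were above 1. In LB2, for example, MT-RNR2 stood at 1037, 196, 511 and 5968 CPM at 0 h and 85.9, 134, 42296 and 4275 at 16 h (log2 2.60 ± 1.34 (SE), edgeR adjusted p = 0.323).

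**Figure D4:**
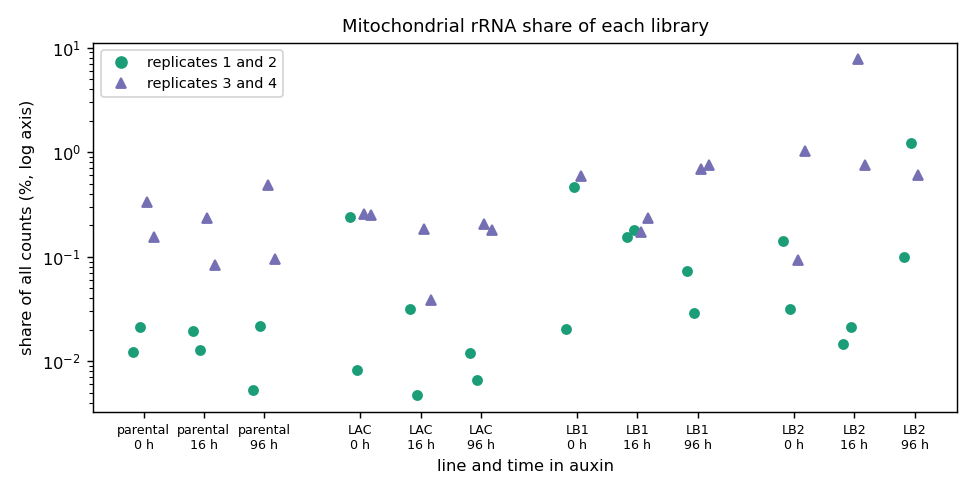
Share of all counts (%, log axis) held by MT-RNR1 and MT-RNR2 together in each library, by line and time in auxin; circles are replicates 1 and 2 and triangles replicates 3 and 4. Triangles lie above circles in most groups, and the highest point, 7.72%, is LB2 16 h replicate 3.

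The tRNA genes were thinly covered, at 0.00142% to 0.0191% of counts for all 22 together, and 10 did not pass the low-count filter. The labels describe no step that selects RNAs as short as a mature tRNA. The 8 genes on the minus strand held 91.2% of the tRNA counts, and the 14 on the plus strand 8.83%. MT-TC, the tRNA for cysteine, led with a mean of 541 CPM per kilobase, above MT-ND1 at 469. MT-TP (proline) had 133, MT-TY (tyrosine) 79.7 and MT-TN (asparagine) 32.5, all on the minus strand, and MT-TI (isoleucine) led the plus strand with 23.5. The other tested tRNAs, MT-TQ, MT-TM, MT-TW, MT-TA, MT-TH, MT-TS2 and MT-TL2, had 4.56 to 17.7 CPM per kilobase. MT-TC is 66 bases long, and without division by length it averaged 35.7 CPM against 448 for MT-ND1. The sequences of the 2 most abundant tRNA genes follow.
MT-TC, chrM:5761-5826, minus strand: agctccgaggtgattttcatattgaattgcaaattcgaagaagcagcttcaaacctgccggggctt
MT-TP, chrM:15956-16023, minus strand: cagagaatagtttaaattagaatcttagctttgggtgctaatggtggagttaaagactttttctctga

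MT-TC was called lower at 16 h in the lines where coding genes were. In the parental line it had 56.9, 20.7, 30.5 and 45.7 CPM at 0 h and 7.01, 11.2, 22.2 and 16.0 at 16 h, with a slight overlap (log2 -1.48 ± 0.33 (SE), edgeR adjusted p = 0.00348). It was called lower at 16 h in LAC (log2 -1.395) and in LB1 (log2 -1.70) too. In LB1 it rose from 20.5, 19.3, 12.9 and 11.7 CPM at 16 h to 96.5, 69.6, 95.4 and 125 at 96 h (log2 2.61 ± 0.33 (SE), edgeR adjusted p = 1.11e-07). From 16 to 96 h in LAC, MT-TC was called higher where 0 of the 13 coding genes were. At 96 h against 0 h in LAC the 12 tested tRNAs had a median log2 of 0.11, with 7 positive and 0 called. The median of the coding genes was -0.87 there.

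Nuclear copies of mitochondrial sequence can take reads from the genes above. Of 404 such copies in the table, 28 were tested, and together the copies held 0.00319% to 0.0266% of counts, well below the coding share. The 2 with a mean of at least 10 CPM were MTATP6P1 (chr1:633696-634376, 36.0 CPM) and MTND2P28 (chr1:629640-630683, 28.2 CPM), both in GRCh38. MTATP6P1 was called lower in the parental line at 16 h (log2 -1.45, edgeR adjusted p = 0.0293), and MTND2P28 was at log2 -0.97, adjusted p = 0.0659. MTATP6P1 lost its call without parental 0 h replicate 1 or 4 or parental 16 h replicate 1, 3 or 4, where its log2 fold change ran from -1.48 to -1.04. How reads with several matches were counted is not given in the sources used here, so those shared with MT-ATP6 and MT-ND2 cannot be told apart.

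With all libraries kept, in none of the 8 comparisons with 0 h was a larger share of the nuclear genes for the same complexes called than of all genes. Of 74 nuclear subunits of complexes I, III, IV and V, all tested, 3 were lower and 0 higher in the parental line at 16 h, where 9.01% of all genes were called. At 16 h in the tagged lines, where 1.78% (LAC), 1.5% (LB1) and 1.81% (LB2) of all genes were called, 0, 0 and 1 of the 74 were. At 96 h 10 of the 74 were lower and 0 higher in LAC, where 15.4% of all genes were called, 1 was lower in the parental line (7.78%), 0 were called in LB1 (3.17%) and 1 was lower in LB2 (3.55%). These counts moved when single libraries were left out, and the share of all genes called in those fits is not given in this paragraph. In the parental line at 16 h 1 was lower without parental 0 h replicate 1, 3 or 4 or parental 16 h replicate 1, 2 or 4, and in LAC at 16 h 8 were lower and 2 higher without LAC 0 h replicate 2. In LB2 at 96 h 3, 2 and 3 were lower without LB2 0 h replicates 1, 2 and 3, and 0 without LB2 96 h replicate 1 or 3.

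The LAC count at 96 h rested on LAC 0 h replicate 1, one of the libraries under 5000000 counts. Without it 1 of the 74 was lower and 0 higher, and 8.2% of all genes were called. Without LAC 96 h replicate 2, 3 or 4 the subunits called lower were 5, 6 and 6. Without LAC 0 h replicate 2 they were 15, with 4 higher. That was a larger share of the 74 than of all genes in the same fit, whose share is given below. ATP5F1D of ATP synthase had 528, 128, 146 and 149.6 CPM at 0 h and 101, 86.0, 89.0 and 94.8 at 96 h (log2 -1.34 ± 0.39, adjusted p = 0.0148 by edgeR). The first of the 0 h libraries stood apart from the other 3, and without it the change was log2 -0.59, adjusted p = 0.332. NDUFS8 of complex I (log2 -0.72 ± 0.18, adjusted p = 0.00536), UQCRC1 of complex III (log2 -0.40 ± 0.12, adjusted p = 0.0173) and COX8A of complex IV (log2 -0.45 ± 0.13, adjusted p = 0.0112) lost their calls without that library too, at adjusted p = 0.0978, 0.136 and 0.114.

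Among the nuclear genes that act on mitochondrial DNA and RNA, 5 of those named kept their call at 96 h in each fit that left out 1 library. In LAC they were METTL15, an rRNA methyltransferase (log2 0.91 ± 0.20, adjusted p = 0.00107 by edgeR), HSD17B10, a subunit of mitochondrial RNase P (log2 -0.58 ± 0.14, adjusted p = 0.00239), and SLC25A36, a pyrimidine nucleotide carrier (log2 0.76 ± 0.16, adjusted p = 7.66e-04). The parental genes were the helicase TWNK (log2 0.90 ± 0.17, adjusted p = 5.79e-04) and PPARGC1B, a coactivator of mitochondrial biogenesis (log2 0.87 ± 0.16, adjusted p = 2.19e-04). The others were called with all libraries but not in each such fit. In LAC POLRMT, the mitochondrial RNA polymerase, was at log2 -0.76 ± 0.27, adjusted p = 0.0454 and, without LAC 0 h replicate 1, at log2 -0.25, adjusted p = 0.609. ESRRA, a nuclear receptor of biogenesis, was at log2 -0.61 ± 0.21, adjusted p = 0.0391 and, without that library, at log2 -0.18, adjusted p = 0.615. ATAD3A was at log2 -1.04 ± 0.25, adjusted p = 0.00341 and then at log2 -0.68, adjusted p = 0.0512.

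In LAC at 96 h 15.4% of all genes were called. By list, 1 of the 9 tested genes for mitochondrial transcription was higher and 1 lower there, and 0 in each direction without LAC 0 h replicate 1. Of 41 genes for RNA processing and stability, 6 were higher and 5 lower in LAC, and 3 and 3 without that library. Of 21 genes for DNA replication and maintenance, 4 were higher and 4 lower, and 3 and 1 without it. Of 11 tested regulators of biogenesis, 2 were higher and 1 lower, and 0 without it. Without LAC 0 h replicate 2, where 21.6% of all genes were called, the 4 lists had 4, 8, 4 and 5 genes higher and 1, 8, 5 and 1 lower. The same lists had, in the parental line, 1, 2, 3 and 2 genes higher and 0 lower at 96 h, where 7.78% of all genes were called. In LB2 TOP1MT of the DNA list was called higher at 96 h (log2 0.72 ± 0.21, edgeR adjusted p = 0.0418). It lost that call in 5 of the 7 fits that left out 1 library, and 3.55% of all genes were called with all libraries.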

How the data were processed

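Ribosomal-RNA-depleted, stranded total RNA libraries were sequenced in paired reads on a NextSeq2000, per the labels' protocols. The deposited table holds whole-number read counts per gene in GRCh38 coordinates, per the file headers. The submitters' processing notes name STAR 2.7.10a, SAMtools 1.10 and featureCounts 1.6.4; strand and multiple-mapping settings are not given in the sources used here.

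Members were the genes on chrM. Genes passing edgeR's filterByExpr (21484, of which 27 were members) were fitted with edgeR 4.0.16 (R 4.3.3): 1 quasi-likelihood model over 46 libraries and 12 groups, TMM scaling and Benjamini-Hochberg adjustment over all genes tested, with a threshold of 0.05. CPM values are TMM-scaled. Shares used all deposited counts and have Wilson 95% intervals. Scripts were tested on simulated counts. Alternatives used DESeq2 1.42.0, RLE scaling, library size only, no filter, scaling without mitochondrial genes, removal of a GC and length trend, a replicate block, the compared groups only and leaving out each library or the 6 smallest. The members, gene lists and tests were chosen with earlier results of these data known. Coding and ribosomal RNA members and tested tRNAs were named, with nuclear copies averaging at least 10 CPM; other nuclear genes were the called gene with the smallest adjusted p per list and direction at 96 h against 0 h. Same-numbered wells did not deviate together in every pair of any comparison, so numbers were not treated as pairs. Ribosomal RNA shares still split by replicate number in 8 of the 10 groups with 4 replicates. The main model has no term for that split. Total counts ran from 479446 to 37309421; 3 counts corresponded to 0.0804 to 6.26 CPM.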

Additional observations from a re-analysis of the deposited data

Results flagged for a closer look

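Within groups of 4 libraries, 12 of 180 sets of values had 1 library far from the other 3; chance alone gives about 1 in 20. Of these 12, 9 were ribosomal RNA values of the same 3 libraries. LB2 16 h replicate 3 held 7.72% ribosomal RNA, with 38172 CPM of MT-RNR1 and 42296 of MT-RNR2, and LB2 0 h replicate 4 held 1.02%, with 3723 and 5968. LAC 0 h replicate 2 was low at 0.00825%, with 39.3 CPM of MT-RNR1 and 51.4 of MT-RNR2. MT-CO1 was low in LAC 0 h replicate 1 (1632 CPM) and MT-ND6 in LB1 16 h replicate 3 (27.4 CPM). MT-ND3 was high in LB2 0 h replicate 1 (202 CPM).

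Changes at 96 h that differed between lines by edgeR's test of the difference were all lower in LAC. Against the parental line the log2 differences were -1.44 for MT-ND2, -1.41 for MT-CO2, -1.28 for MT-ATP6, -1.33 for MT-ND4, -1.41 for MT-ND5 and -1.45 for MT-CYB. Against LB1 they were -1.79 for MT-ND1, -1.87 for MT-ND2, -1.63 for MT-CO2, -1.80 for MT-ATP6, -1.70 for MT-ND4, -1.98 for MT-ND5 and -2.15 for MT-ND6. Both sets use the same LAC libraries.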

How the results depend on the processing

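Fitted calls depended on the libraries and settings, and the cause was not tested. The counts for parental 16 h, parental 96 over 16 h and LB1 96 over 16 h stayed within 1.5 times of the value above under each alternative that kept all replicates. With DESeq2, the number of mitochondrial genes called was 11 for LB1 16 h, 4 for LB1 96 h, 1 for LB2 16 h, 1 for LB2 96 h, 0 for LB2 at 0 h and 6 for LAC minus LB2 at 96 h. With GC and length trend removed, the number of mitochondrial genes called was 11 for LAC 96 h, 2 for LB2 16 h, 9 for LB2 96 h, 12 for LAC minus parental at 96 h, 1 for LB2 minus parental at 16 h, 16 for LB2 96 over 16 h, 11 for LAC minus LB1 at 96 h and 12 for LAC minus LB2 at 96 h. With RLE scaling, the number of mitochondrial genes called was 3 for LAC minus parental at 96 h. With compared groups only, the number of mitochondrial genes called was 4 for LAC 16 h, 11 for LB1 16 h, 16 for LB1 96 h, 1 for LB1 minus parental at 96 h, 0 for LB2 at 0 h and 11 for LAC 96 over 16 h. With library size only, the number of mitochondrial genes called was 2 for LAC 96 h, 1 for LAC minus parental at 96 h and 12 for LB2 96 over 16 h. With mitochondrial genes left out of the scaling, the number of mitochondrial genes called was 4 for LB1 16 h. With no low-count filter, the number of mitochondrial genes called was 5 for parental 96 h, 16 for LAC 16 h, 13 for LAC 96 h, 17 for LB1 16 h, 15 for LB1 96 h, 7 for LB2 16 h, 13 for LB2 96 h, 1 for LAC minus parental at 16 h, 14 for LAC minus parental at 96 h, 1 for LB1 minus parental at 96 h, 3 for LB2 minus parental at 16 h, 1 for LB2 minus parental at 96 h, 6 for LAC at 0 h, 2 for LB1 at 0 h, 4 for LB2 at 0 h (of which 3 higher, with MT-TM still lower), 7 for LAC 96 over 16 h, 18 for LB2 96 over 16 h, 15 for LAC minus LB1 at 96 h and 15 for LAC minus LB2 at 96 h. With a replicate block in the fit, the number of mitochondrial genes called was 11 for LB1 16 h, 1 for LB2 96 h, 12 for LB2 96 over 16 h and 3 for LAC minus LB2 at 96 h. With the 6 libraries under 5000000 counts left out, the number of mitochondrial genes called was 1 for parental 96 h, 12 for LB1 16 h, 4 for LB1 96 h, 3 for LB2 96 h, 1 for LAC at 0 h, 4 for LAC 96 over 16 h, 15 for LB2 96 over 16 h and 12 for LAC minus LB2 at 96 h. The log2 ratio of the mean share of all mitochondrial genes, ribosomal RNA included, was 0.96 for LB2 16 h and -0.30 for LB2 96 over 16 h, opposite in sign to the coding share; LB2 16 h replicate 3 held 7.72% ribosomal RNA. With replicates 1 and 2 only, the log2 ratio of the mean coding shares was -0.29 for parental 96 h, -0.51 for LAC 16 h, 0.22 for LAC 96 h, -1.54 for LB1 16 h, 1.07 for LB2 96 h, -0.62 for LAC at 0 h and -0.63 for LB2 at 0 h. With replicates 3 and 4 only, the log2 ratio of the mean coding shares was -0.75 for LAC 96 h, -0.51 for LB1 16 h and 1.22 for LB1 96 h. The low-count filter sets how many genes are tested and the compared-groups fit how many libraries share the spread. All 13 coding genes passed that filter. Dropping it gave 1207 (parental), 2698 (LAC), 497 (LB1) and 608 (LB2) calls over all genes at 96 h against 0 h. The filtered fit gave 1671, 3304, 682 and 762. Coding calls rose from 0, 7, 1 and 0 to 4, 11, 12 and 8. For LAC 16 h calls over all genes rose too, from 383 to 918. Calls over all genes under the other settings are not given here. The splits by replicate number, and the comparisons of 96 with 16 h and of LAC with LB1 and LB2, were chosen after seeing the data, as were the fits of nuclear genes and lists without 1 library. Leaving out 1 library each, calls ran over 4 to 13 for parental 16 h, 0 to 2 for parental 96 h, 1 to 13 for LAC 16 h, 1 to 8 for LAC 96 h, 1 to 9 for LB1 16 h, 0 to 1 for LB1 96 h, 0 to 3 for LB2 16 h, 0 to 3 for LB2 96 h, 0 to 1 for LAC at 0 h, 0 for LB1 at 0 h, 1 to 2 for LB2 at 0 h, 4 to 15 for parental 96 over 16 h, 0 to 2 for LAC 96 over 16 h, 16 to 20 for LB1 96 over 16 h, 2 to 12 for LB2 96 over 16 h, 0 for LAC minus parental at 16 h, 1 to 11 for LAC minus parental at 96 h, 0 for LB1 minus parental at 16 h, 0 for LB1 minus parental at 96 h, 0 for LB2 minus parental at 16 h, 0 for LB2 minus parental at 96 h, 0 to 9 for LAC minus LB1 at 96 h and 0 to 6 for LAC minus LB2 at 96 h. The log2 share ratios then ran over -0.95 to -0.71 for parental 16 h, 0.17 to 0.59 for parental 96 h, -1.10 to -0.75 for LAC 16 h, -0.48 to -0.13 for LAC 96 h, -1.34 to -0.90 for LB1 16 h, 0.76 to 1.13 for LB1 96 h, -0.84 to -0.29 for LB2 16 h, 0.33 to 0.83 for LB2 96 h, -0.32 to 0.03 for LAC at 0 h, -0.15 to 0.22 for LB1 at 0 h, -0.23 to 0.27 for LB2 at 0 h, 1.02 to 1.44 for parental 96 over 16 h, 0.56 to 0.68 for LAC 96 over 16 h, 1.89 to 2.26 for LB1 96 over 16 h and 0.96 to 1.39 for LB2 96 over 16 h. Same-numbered wells did not deviate together in every pair of any comparison, although ribosomal RNA shares split by replicate number in 8 of 10 groups. The replicate block ended none of the 94 calls on named genes. It raised the number of mitochondrial genes called in the comparisons listed for it above. No call on a named gene reversed. Small libraries limit precision for tRNAs, where 3 counts were up to 6.26 CPM.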

Other observations

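Some genes of the other lists were also called at 96 h by edgeR. CDX2, an intestinal transcription factor, was higher in the parental line (log2 1.24 ± 0.13, adjusted p = 5.02e-09) and in LB2 (log2 0.77 ± 0.14, adjusted p = 3.39e-04), in each fit that left out 1 library too. In LB1 it was higher (log2 0.60 ± 0.14, adjusted p = 0.00686) but not without LB1 0 h replicate 1 (log2 0.55, adjusted p = 0.0712). NEAT1, a nuclear noncoding RNA, was lower in the parental line (log2 -1.49 ± 0.17, adjusted p = 3.01e-08), also in each such fit. In LAC the keratin KRT20 was higher (log2 0.54 ± 0.15, adjusted p = 0.00859) and KRT19 lower (log2 -0.81 ± 0.22, adjusted p = 0.00687), and neither was called without LAC 0 h replicate 1 (log2 0.39, adjusted p = 0.0699 and log2 -0.46, adjusted p = 0.138).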
